A study of Canis lupus familiaris with 10 samples.

Results

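The response of canine lymphoma cells to loss of PRMT5 activity was compared between 2 cell lines, to find the genes whose change under the inhibitor was not the same in both. PRMT5 is an enzyme that dimethylates arginines, among them those of histones and of the Sm proteins that form splicing particles, and cells that lose its activity are known to splice many messenger RNAs less well. The quantity reported for each gene is the treated minus control change in CLBL-1 minus the treated minus control change in 17-71, in log2 units, and is called the difference of response. A positive value means that the change in CLBL-1 was more positive, or less negative, than the change in 17-71. All 10 arrays of the 10 in the series entered 1 fit of 4 group means. CLBL-1 cells gave 2 arrays after 2 days with 100 nM of the inhibitor (PR220 in the labels, C220 in the study) and 3 control arrays of the same day. 17-71 cells gave 3 arrays after 4 days with 100 nM and 2 control arrays of that day. Both lines are established from dogs with B-cell lymphoma, with lymph node as the labelled source, and grew in the same medium. Each stands for 1 line only, and line and day cannot be told apart. The study describes the treatments as biological triplicates, but treated CLBL-1 and control 17-71 cells have 2 arrays each, for a reason not given. The labels do not say whether arrays of a group came from separate cultures. The p-values measure the spread between these arrays.

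Expression was read on whole-transcript canine gene arrays as log2 values made by robust multi-array averaging (RMA). The 32391 probe sets had array medians of 3.71 to 3.79. Pearson's r over probe sets was 0.99 to 0.993 within a group and 0.934 to 0.939 between lines. RMA fixes the distribution of every array, so it hides any change in the total RNA of a cell. In these bulk samples a lower level in every cell and fewer cells with the transcript cannot be told apart.

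The B-cell label was borne out by the defining markers in CLBL-1 and by few of them in 17-71. Of 8 B cell identity genes measured, 8 lay above the median level of 3.78 in treated and control CLBL-1 cells, against 3 in treated and control 17-71 cells. The mean over these genes was 8.78 to 9.07 on the CLBL-1 arrays and 3.93 to 4.25 on the 17-71 arrays. MS4A1, which encodes CD20, read 11.87 in treated and 12.03 in control CLBL-1 cells, and 2.40 in treated and 2.19 in control 17-71 cells. CD22 was above the median in both lines, at 7.49 in treated and 7.37 in control 17-71 cells. Of the T and NK cell markers 4 of 9 lay above the median in CLBL-1 and 2 of 9 in 17-71, and of the myeloid markers 2 of 7 in each line. CD3G, a T cell gene, read 8.88 in treated and 8.96 in control CLBL-1 cells, and CD3D 7.16 and 6.83. The myeloid genes CD14, CSF1R, CSF3R, ITGAM and MPO lay below the median in both lines. LYZ was high in both, at 11.13 in CLBL-1 and 10.79 in 17-71 controls. On a wider list of 28 B cell receptor and surface genes, 27 in treated and 27 in control CLBL-1 cells lay above the median. In 17-71 the same list had 21 above it in treated and 20 in control cells. On a wider list of 22 myeloid genes, 6 in treated and 7 in control CLBL-1 cells lay above the median, against 12 in treated and 12 in control 17-71 cells. TYROBP, a signalling adaptor of myeloid and NK cells, averaged 3.52 in treated and 3.27 in control CLBL-1 cells, and 10.58 in treated and 10.60 in control 17-71 cells. S100A9 averaged 3.05 in treated and 3.28 in control CLBL-1 cells, and 9.88 in treated and 9.53 in control 17-71 cells. In 17-71, then, most of the 8 B cell identity genes were low, while most of the wider B cell list lay above the median. Several myeloid genes were high and others low there, with or without the inhibitor. CD68, a macrophage protein, read 4.29 in treated and 4.13 in control CLBL-1 cells, and 9.61 in treated and 9.65 in control 17-71 cells. Stromal, endothelial and epithelial markers lay above the median for 1 of 10 genes in CLBL-1 and 3 of 10 in 17-71, and erythroid and platelet markers for 0 of 3 in both. None of the 37 marker genes of the shorter lists passed the threshold for the difference of response, and the part of these line differences in the results was not tested.

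The lines differed most clearly in a small set of genes that fell in CLBL-1 and did not pass in 17-71, in the splicing factor gene PRPF39, which rose in CLBL-1, in WSB1, which fell in 17-71, and in CXCR5, which rose in 17-71. Past the threshold, an adjusted p below 0.05 with limma and Benjamini-Hochberg adjustment over all probe sets, were 5 probe sets with a positive difference (0.0154% of those tested) and 5 with a negative one (0.0154%). The count depended on the variance model: with an intensity trend and robust variances 132 were positive and 156 negative, the reported 10 among them. At an unadjusted p below 0.05 there were 3654 (11.3%), of which 1917 were positive and 1737 negative. In the same fit CLBL-1 alone had 200 probe sets that rose (0.617%) and 407 that fell (1.26%), and 17-71 had 2 that rose (0.00617%) and 13 that fell (0.0401%). Of the 10 probe sets past the threshold for the difference, 7 carried a single gene symbol. CYB561A3, IDH3G, RNASEH2C, CXCR5 and PRR11 had a negative difference, and PRPF39 and WSB1 a positive one.

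CYB561A3, a lysosomal cytochrome b561 that reduces iron, had the most negative difference of all genes. Its level was 7.06 and 7.04 in treated CLBL-1 cells, against 9.33, 9.35 and 9.26 in CLBL-1 controls. In 17-71 it was 9.79, 9.76 and 9.96 in treated cells, against 10.46 and 10.42 in controls. The treated arrays lay below the controls in both lines, by a far wider gap in CLBL-1. The fall was 4.82-fold in CLBL-1 (log2 change -2.27, adjusted p = 7.08e-05), against a log2 change of -0.61 in 17-71 that did not pass (adjusted p = 0.0666). The difference was -1.66 (SE 0.121, 95% interval -1.94 to -1.38, adjusted p = 0.0158).

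IDH3G encodes a regulatory subunit of the mitochondrial isocitrate dehydrogenase of the citric acid cycle. It read 6.80 and 6.89 in treated CLBL-1 cells, against 8.25, 8.28 and 8.35 in CLBL-1 controls. In 17-71 the levels were 6.55, 6.72 and 6.62 in treated cells and 6.67 and 6.87 in controls, and these groups overlapped. Treatment took IDH3G in CLBL-1 to about the level that 17-71 had with or without the inhibitor. The difference was -1.31 (SE 0.132, 95% interval -1.61 to -1.01, adjusted p = 0.0401), made of a log2 change of -1.45 in CLBL-1 (adjusted p = 0.00072) and -0.14 in 17-71 (adjusted p = 0.612). Of 18 citric acid cycle genes measured it was the only 1 past the threshold, and the median difference of that list was -0.05.

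RNASEH2C, a subunit of the ribonuclease that removes RNA from RNA-DNA hybrids, read 5.46 and 5.56 in treated CLBL-1 cells, against 7.13, 6.95 and 7.04 in CLBL-1 controls. In 17-71 it read 8.13, 8.19 and 8.15 in treated cells, against 8.60 and 8.59 in controls. Treated arrays were below controls in both lines. The difference was -1.09 (SE 0.115, adjusted p = 0.0401), with a 2.88-fold fall in CLBL-1 (adjusted p = 0.000297) and a log2 change of -0.43 in 17-71 (adjusted p = 0.126).

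PRR11, a proline-rich protein of the cell cycle, read 6.50 and 6.60 in treated CLBL-1 cells, against 7.82, 7.81 and 7.75 in CLBL-1 controls. In 17-71 it read 7.66, 7.69 and 7.49 in treated cells, against 7.76 and 7.77 in controls. The control levels of both lines were alike, and only the treated CLBL-1 arrays stood far from the rest. The difference was -1.09 (SE 0.121, adjusted p = 0.0428), with a 2.37-fold fall in CLBL-1 (adjusted p = 0.000889) and a log2 change of -0.15 in 17-71 (adjusted p = 0.545).

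CXCR5, the chemokine receptor that guides B cells into follicles, was the 1 gene past the threshold with a negative difference and its larger change in 17-71. It read 8.59 and 8.54 in treated CLBL-1 cells, against 8.68, 8.76 and 8.80 in CLBL-1 controls. In 17-71 it read 4.52, 4.50 and 4.47 in treated cells, against 3.71 and 3.58 in controls. CXCR5 rose 1.80-fold in 17-71 (log2 change 0.85, adjusted p = 0.025), where the control level of 3.65 lay below the median level over probe sets, and its log2 change in CLBL-1 was -0.18 (adjusted p = 0.367). The difference was -1.03 (SE 0.11, adjusted p = 0.0401).

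PRPF39, a factor that joins the U1 particle at the start of introns, had the most positive difference of the named genes. It read 7.73 and 7.46 in treated CLBL-1 cells, against 6.01, 6.12 and 6.04 in CLBL-1 controls. In 17-71 it read 5.87, 5.87 and 5.58 in treated cells and 6.01 and 5.80 in controls, and these groups overlapped. The other 3 groups sat together, and the treated CLBL-1 arrays alone were higher. PRPF39 rose 2.90-fold in CLBL-1 (log2 change 1.54, adjusted p = 0.00173), against a log2 change of -0.13 in 17-71 (adjusted p = 0.747). The difference was 1.67 (SE 0.18, 95% interval 1.26 to 2.08, adjusted p = 0.0401).

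WSB1, a SOCS-box protein that brings substrates to a ubiquitin ligase, had treated arrays on opposite sides of the controls in the lines. It read 8.50 and 8.62 in treated CLBL-1 cells, against 8.19, 8.20 and 8.31 in CLBL-1 controls. In 17-71 it read 7.47, 7.47 and 7.56 in treated cells, against 8.31 and 8.34 in controls. Treated arrays were above the controls in CLBL-1 and below them in 17-71. WSB1 fell 1.78-fold in 17-71 (log2 change -0.83, adjusted p = 0.0284), and its log2 change in CLBL-1 was 0.33 (adjusted p = 0.0959). The difference was 1.16 (SE 0.114, adjusted p = 0.0401).

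The other 3 probe sets past the threshold had no gene name here and a positive difference. A pair of them held identical values on all arrays, at 1.72 in treated and 1.48 in control CLBL-1 cells and 1.17 in treated and 2.97 in control 17-71 cells, all below the median level. The third averaged 5.11 in treated and 4.65 in control CLBL-1 cells, and 3.47 in treated and 4.54 in control 17-71 cells, with a difference of 1.54 (SE 0.166, adjusted p = 0.0401). All 3 fell in 17-71 in the joint fit.

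**Figure D1:**
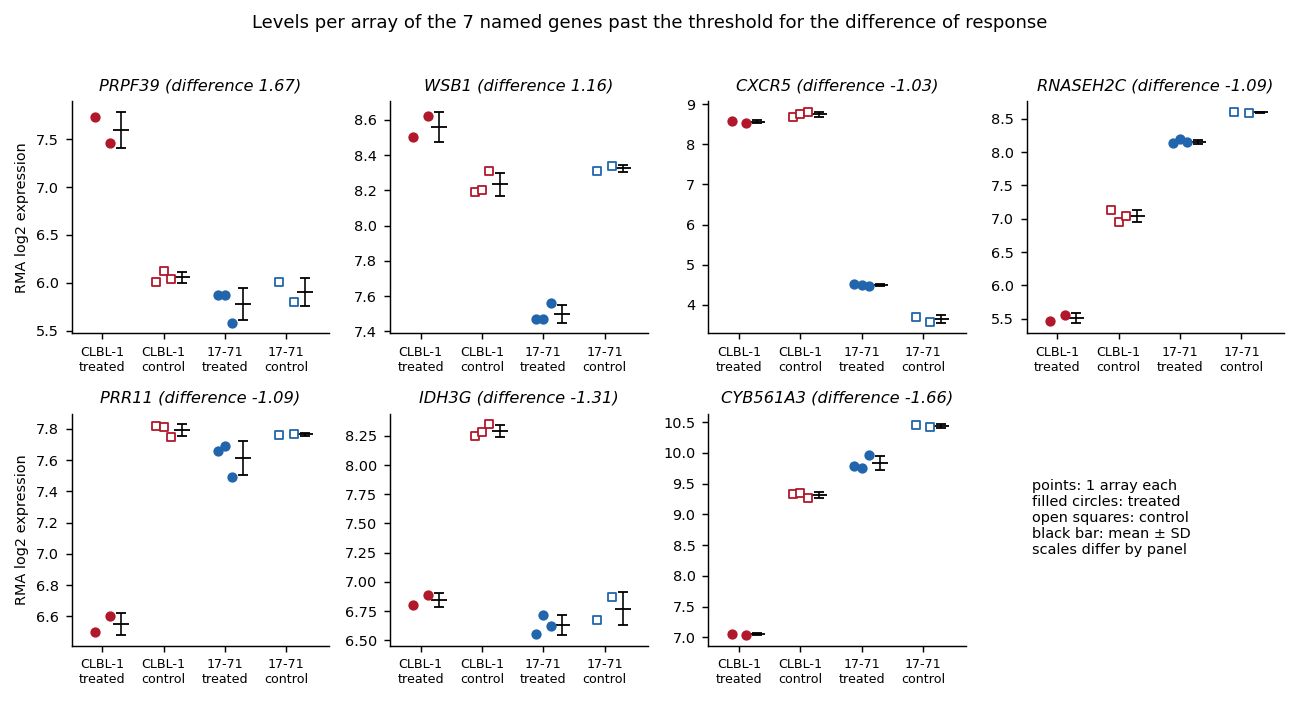
Levels per array (RMA log2 expression) of the 7 named genes past the threshold, in treated and control cells of CLBL-1 and 17-71. Each point is 1 array and the black bars are mean ± SD. PRPF39 rose in treated CLBL-1 cells alone, WSB1 fell in treated 17-71 cells, and IDH3G and PRR11 fell in treated CLBL-1 cells.

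These 7 calls rested on small groups. With any 1 of the 10 arrays left out, between 0 and 2 probe sets passed. CYB561A3 passed in 2 of the 10 such fits (adjusted p 0.029 to 0.196), and none of the other 6 genes passed in any (0 of 10), although all kept their direction.

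Of the genes next in rank, 8 more with a positive difference and 5 more with a negative one were named by the smallest p. None of these 13 passed the threshold, and their adjusted p lay between 0.0521 and 0.0899. With an intensity trend and robust variances all 13 passed, with adjusted p of 0.00135 to 0.0404. On the positive side stood genes of pre-mRNA splicing. CLK1, a kinase that phosphorylates SR splicing factors, read 7.08 and 7.11 in treated CLBL-1 cells, against 6.15, 6.45 and 6.29 in CLBL-1 controls. In 17-71 it read 7.80, 7.74 and 7.63 in treated cells, against 8.0 and 8.22 in controls. CLK1 rose in CLBL-1 (log2 change 0.80, adjusted p = 0.0143) and its change in 17-71 was -0.38 (adjusted p = 0.284), a difference of 1.18. SRSF5, an SR splicing factor, read 7.83 and 7.69 in treated CLBL-1 cells, against 7.42, 7.49 and 7.34 in CLBL-1 controls. In 17-71 SRSF5 read 6.48, 6.33 and 6.25 in treated cells, against 6.98 and 7.02 in controls. Neither line passed on its own for SRSF5 (log2 change 0.34 in CLBL-1, adjusted p = 0.14, and -0.65 in 17-71, adjusted p = 0.0784), and the treated arrays stood apart from the controls on opposite sides. ARGLU1, an arginine- and glutamate-rich splicing and transcription cofactor, had a difference of 1.04 that came from 17-71, at 7.10, 6.85 and 7.18 in treated cells, against 7.97 and 7.98 in controls. Its CLBL-1 arrays overlapped, at 6.48 and 6.63 in treated cells and 6.47, 6.36 and 6.50 in controls.

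TERT, the catalytic subunit of telomerase, read 4.30, 4.54 and 4.41 in treated 17-71 cells, against 5.24 and 5.47 in 17-71 controls. It fell 1.92-fold in 17-71 (log2 change -0.94, adjusted p = 0.037). In CLBL-1 it read 3.94 and 3.91 in treated cells and 3.87, 3.84 and 3.94 in controls, overlapping levels just above the median level over probe sets. The difference of TERT was 0.98 (adjusted p = 0.0826). CD274, which encodes the checkpoint ligand PD-L1, read 8.24 and 8.30 in treated CLBL-1 cells, against 7.65, 7.54 and 7.52 in CLBL-1 controls. In 17-71 CD274 read 8.49, 8.40 and 8.27 in treated cells, against 8.76 and 8.80 in controls. CD274 rose in CLBL-1 (log2 change 0.70, adjusted p = 0.0101), its change in 17-71 was -0.39 (adjusted p = 0.198), and the difference of 1.09 narrowly missed the threshold (adjusted p = 0.0521). The remaining genes on this side were PAXBP1 (difference 0.92), the zinc finger gene ZBTB49 (0.70) and the ADP-ribosyltransferase PARP6 (0.92).

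On the negative side AFMID, an enzyme on the route from tryptophan to kynurenine, fell in both lines and further in CLBL-1. It read 4.74 and 5.01 in treated CLBL-1 cells, against 6.99, 6.85 and 7.05 in CLBL-1 controls. In 17-71 AFMID read 7.51, 7.57 and 7.61 in treated cells, against 8.55 and 8.48 in controls. The fall was 4.26-fold in CLBL-1 (adjusted p = 0.000265) and 1.94-fold in 17-71 (adjusted p = 0.037), and the difference of -1.13 did not pass (adjusted p = 0.0666). AGPAT1, an acyltransferase of phospholipid synthesis, fell 2.76-fold in CLBL-1 (adjusted p = 0.0011), with a difference of -1.19. SMIM20, a small protein of cytochrome c oxidase assembly, fell 2.56-fold in CLBL-1 (adjusted p = 0.00072), with a difference of -1.0. LOC478413 fell 2.08-fold in CLBL-1, with a difference of -0.83. IDNK, a gluconokinase, read 4.55 and 4.58 in treated CLBL-1 cells, against 5.83, 5.99 and 5.96 in CLBL-1 controls. Its 17-71 arrays were all far below the median level, at 1.61 to 2.03 in treated cells and 1.61 to 1.77 in controls, so that a fall could hardly be measured there.

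PRMT5 itself and MYC, a proto-oncogene tied to PRMT5 in lymphoma, showed no difference of response past the threshold. PRMT5 read 8.53 and 8.39 in treated CLBL-1 cells, against 8.77, 8.70 and 8.73 in CLBL-1 controls. In 17-71 PRMT5 read 7.84, 7.69 and 7.75 in treated cells and 7.72 and 7.86 in controls. The interval of its difference ran from -0.53 to 0.05 (adjusted p = 0.523). MYC read 8.02 and 7.95 in treated CLBL-1 cells, against 7.81, 7.84 and 7.90 in CLBL-1 controls. In 17-71 MYC read 8.24, 8.38 and 8.30 in treated cells and 8.41 and 8.31 in controls. The interval of the MYC difference ran from -0.08 to 0.45 (adjusted p = 0.601). The study reported less MYC transcript by quantitative RT-PCR in CLBL-1 at the same dose and day, and less MYC protein in both lines. On the arrays the log2 change of MYC was 0.13 in CLBL-1 (adjusted p = 0.552) and -0.06 in 17-71 (adjusted p = 0.849). The reason for this discrepancy was not tested. An inhibitor of the enzyme need not change its transcript, and the levels of PRMT5 therefore do not test the treatment labels.

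Among genes picked for their difference, the 2 directions differed in how the lines contributed. All 10 named genes with a positive difference had changes of opposite sign in the lines, and the larger change was in CLBL-1 for 5 and in 17-71 for the other 5. Of the 10 with a negative difference 8 had changes of the same sign, and 9 had the larger change in CLBL-1. The same held in part for all 15947 genes with 1 probe set each. At an unadjusted p below 0.05, 1166 genes had a positive difference (7.31%), of which 943 (80.9%) had opposite signs, and 949 a negative one (5.95%), of which 618 (65.1%) had opposite signs. Among the positive ones the median log2 change was 0.29 in CLBL-1 and -0.16 in 17-71, and among the negative ones it was -0.34 in CLBL-1 and 0.13 in 17-71. The change was negative in both lines for 45 genes with a positive difference and for 300 with a negative one. Picking genes by the difference by itself favours opposite signs, and over all genes 54.8% had the same sign. These shares are therefore a description and no test.

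Genes that fell in CLBL-1 were mostly lower in treated 17-71 cells too, and those that rose were shared less. The 337 genes that fell in CLBL-1 had a median log2 change of -0.67 there and -0.20 in 17-71, and 294 of them (87.2%) were also lower in treated 17-71 cells. In 269 of the 337 the 17-71 change was under 0.5 times as large or of opposite sign. The 169 genes that rose in CLBL-1 had a median log2 change of 0.52 there and 0.05 in 17-71, where 105 (62.1%) were also higher and 155 had under 0.5 times the change or the opposite sign. Both sets were picked for passing in CLBL-1, which by itself favours a smaller change in 17-71. These medians and counts are therefore no test of a difference between the lines. In 17-71 only 6 genes fell and 2 rose. Over all genes 54.8% had the same sign in both lines, with Pearson's r of 0.185 and Spearman's rho of 0.133 between the changes, a description across genes that are not independent replicates and share the arrays of each line. The SD of the change over genes was 0.234 in CLBL-1 and 0.193 in 17-71. The interquartile range of all differences was -0.16 to 0.17, and 21 genes were above 1 and 31 below -1.

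**Figure D2:**
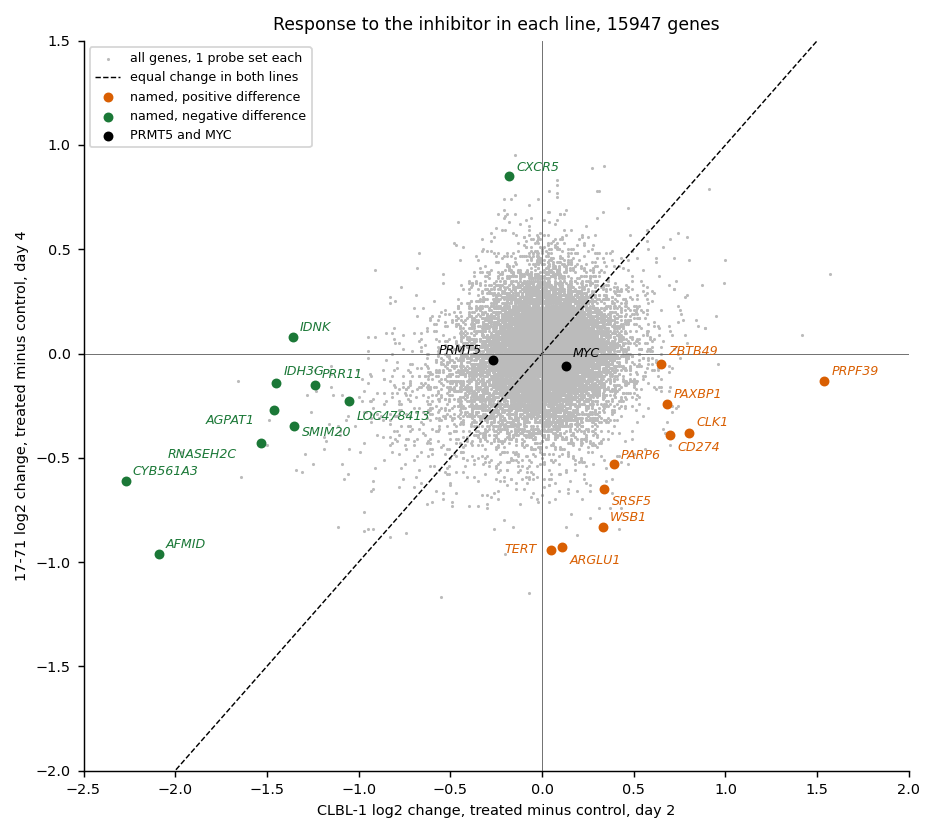
Log2 change, treated minus control, in CLBL-1 at day 2 (horizontal axis) and in 17-71 at day 4 (vertical axis) for 15947 genes, with the dashed line marking equal change. The 10 named genes with a positive difference all lie in the lower right quadrant, where CLBL-1 was higher and 17-71 lower after treatment, and 8 of the 10 with a negative difference lie in the lower left.

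Gene lists are described by the number of members on each side and by their median, beside the same over all 15947 genes, of which 50.6% had a positive difference with a median of 0.00. Members and lists were chosen with earlier results of these data known, so the leans described are no independent support. Splicing genes leaned to the positive side. Of 63 measured components of the U1, U2 and tri-snRNP particles and the catalytic spliceosome, which recognise and cut introns, 51 had a positive difference, with a median of 0.19. The median change was 0.24 in CLBL-1 and 0.06 in 17-71. At an unadjusted p below 0.05, 19 were positive (30.2%) and 1 negative (1.59%), and PRPF39 alone passed over all probe sets. LUC7L, a U1-associated factor, changed by 0.32 in CLBL-1 and -0.37 in 17-71, a difference of 0.69. U2AF1, which reads the end of introns, read 8.77 and 8.76 in treated CLBL-1 cells, against 8.24, 8.39 and 8.28 in CLBL-1 controls. Its 17-71 levels stayed together, at 8.45, 8.42 and 8.45 in treated cells and 8.41 and 8.44 in controls. U2AF1 rose in CLBL-1 (adjusted p = 0.0247), with a difference of 0.45 that did not pass (adjusted p = 0.201). RBM25, another U1-linked factor, had a difference of 0.52. In this list 11 of 63 genes rose in CLBL-1, where 1.06% of all genes did, and 0 in 17-71, where 0.0125% of all genes did.

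SR proteins and the kinases that phosphorylate them select exons, and 19 of 23 had a positive difference, with a median of 0.18. The median change was 0.17 in CLBL-1 and -0.01 in 17-71, and 5 were positive at an unadjusted p below 0.05 (21.7%) with 0 negative. Besides CLK1 and SRSF5, these 5 included CLK4, a sister kinase of CLK1, at 6.62 and 7.0 in treated CLBL-1 cells, against 5.99, 6.15 and 6.16 in CLBL-1 controls. In 17-71 CLK4 read 7.09, 6.90 and 7.15 in treated cells, against 7.27 and 7.33 in controls. The CLK4 difference was 0.96 (SE 0.181, adjusted p = 0.131), and SRSF10 had 0.46. Sm, LSM and SMN complex genes, which build the cores of the splicing particles, were positive for 17 of 23 with a median of 0.12. GEMIN6 of the SMN complex rose in CLBL-1 (log2 change 0.59, adjusted p = 0.00796) against a change of 0.01 in 17-71, and SNRPN had a negative difference of -0.57 that came from 17-71, where its mean of 3.54 in treated and 3.0 in control cells lay below the median level. The mRNA export complex TREX had 11 of 15 positive with a median of 0.14, but members on both sides. ZC3H11A had a difference of 0.55 and THOC1 of 0.50, whereas THOC6 fell in CLBL-1 (adjusted p = 0.0455) and had -0.68. The hnRNP proteins, which also bind introns, did not lean the same way, with 6 of 20 positive and a median of -0.06.

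**Figure D3:**
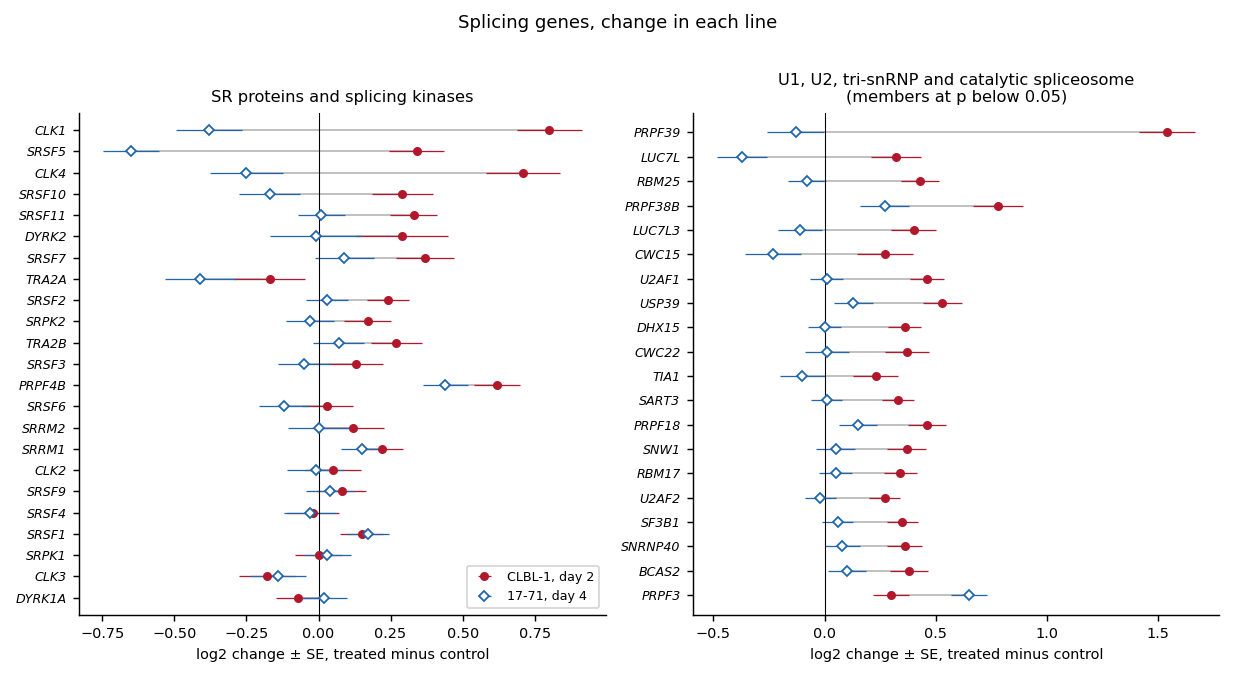
Log2 change ± SE, treated minus control, in CLBL-1 (filled circles) and 17-71 (open diamonds) for 23 SR protein and splicing kinase genes and for the 20 of 63 spliceosome genes at an unadjusted limma p below 0.05 for the difference. CLK1, SRSF5, CLK4 and PRPF39 show the widest gaps, and PRPF3 is the 1 spliceosome gene shown with a negative difference.

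Genes of the amino acid response, which the transcription factor ATF4 switches on when amino acids or protein folding capacity run short, gave the most positive list median. Of 34 measured members 27 had a positive difference, with a median of 0.29. The list was split between the lines, with a median change of 0.10 in CLBL-1 and -0.17 in 17-71, where 32 of 34 members had a negative change. At an unadjusted p below 0.05, 15 were positive (44.1%) and 0 negative, though none passed over all probe sets (0 of 34). PSPH, the phosphatase that yields serine, read 6.01 and 6.07 in treated CLBL-1 cells, against 6.13, 6.11 and 6.13 in CLBL-1 controls. In 17-71 PSPH read 7.37, 7.43 and 7.37 in treated cells, against 8.0 and 7.88 in controls. Its difference of 0.46 (adjusted p = 0.191) therefore lay in 17-71. SLC7A5 and SLC3A2, the light and heavy chains of a carrier of large neutral amino acids, had like values of the difference. SLC7A5 read 10.30 and 10.20 in treated CLBL-1 cells, against 10.04, 9.98 and 10.03 in CLBL-1 controls. In 17-71 SLC7A5 read 9.96, 9.97 and 10.00 in treated cells, against 10.12 and 10.23 in controls. The groups stood apart in both lines and in opposite directions, with a difference of 0.43 for SLC7A5 and 0.39 for SLC3A2. CHAC1, which breaks down glutathione, had a difference of 0.61. ATF4 itself, named after its value was seen, changed by 0.18 in CLBL-1 and -0.17 in 17-71, a difference of 0.35 that did not pass (adjusted p = 0.275).

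Aminoacyl-tRNA synthetases, which charge transfer RNAs and of which ATF4 controls several, were positive for 29 of 38 with a median of 0.09. At an unadjusted p below 0.05, 8 were positive (21.1%) and 3 negative (7.89%). In CLBL-1, however, 4 of the 38 fell and 1 rose, where 2.11% and 1.06% of all genes did. QARS1, which charges glutamine transfer RNA, had a negative difference. It read 8.56 and 8.62 in treated CLBL-1 cells, against 9.12, 9.11 and 9.22 in CLBL-1 controls, and 9.29, 9.29 and 9.33 in treated and 9.33 and 9.25 in control 17-71 cells. QARS1 fell in CLBL-1 (adjusted p = 0.0121) with a difference of -0.57 (adjusted p = 0.129). YARS2, the mitochondrial tyrosine enzyme, rose in CLBL-1 (adjusted p = 0.0415) with a difference of 0.52.

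Ribosome-building genes of the nucleolus were positive for 45 of 52, with a median of 0.23, and here the lean came from CLBL-1. The median change was 0.24 in CLBL-1 and 0.00 in 17-71, and 19 were positive (36.5%) and 0 negative at an unadjusted p below 0.05. RRP9, a protein of the U3 particle that processes ribosomal RNA, read 5.55 and 5.75 in treated CLBL-1 cells, against 5.23, 5.15 and 5.31 in CLBL-1 controls. In 17-71 RRP9 read 4.90, 5.01 and 4.97 in treated cells, against 5.17 and 5.27 in controls. Its difference was 0.68 (adjusted p = 0.144). WDR43, NOP2, an RNA methyltransferase, and WDR74 rose in CLBL-1 (adjusted p 0.0214, 0.0201 and 0.0459), with differences of 0.47, 0.42 and 0.45. Mitochondrial ribosomal proteins were positive for 51 of 72 with a median of 0.10, and cytosolic ribosomal proteins for 31 of 59 with a median of 0.01.

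**Figure D4:**
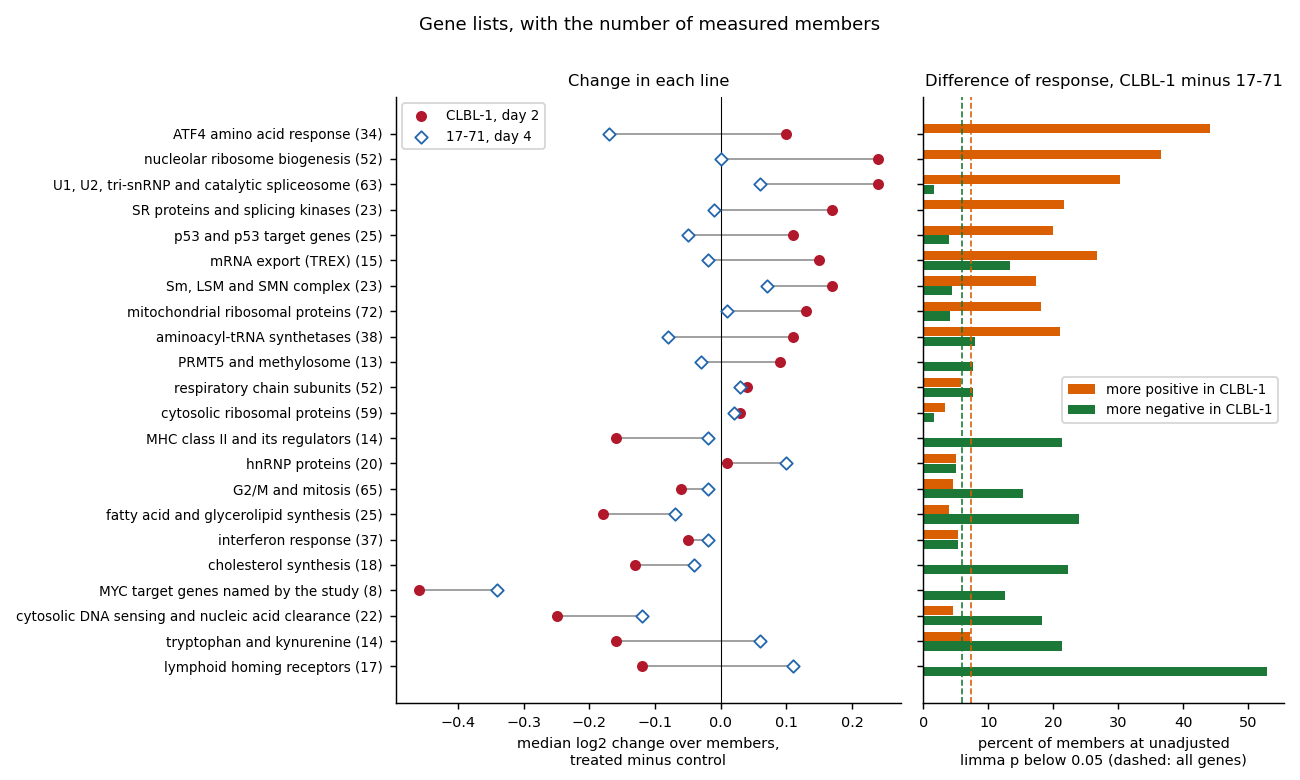
Left, median log2 change over the members of 22 of the 48 gene lists in CLBL-1 (filled circles) and 17-71 (open diamonds), with the number of measured members in brackets. Right, percent of members at an unadjusted limma p below 0.05 for the difference of response in each direction, with dashed lines for all genes at 7.31% and 5.95%. ATF4, nucleolar and spliceosome genes lean to the positive side, and homing receptors to the negative side (52.9%).

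Receptors that steer lymphocytes to and within lymphoid organs had the most negative list median, with 14 of 17 negative and a median of -0.26. The median change was -0.12 in CLBL-1 and 0.11 in 17-71. At an unadjusted p below 0.05, 9 were negative (52.9%) and 0 positive, and CXCR5 alone passed over all probe sets. GPR183, an oxysterol receptor that positions B cells in the follicle, read 10.05 and 9.87 in treated CLBL-1 cells, against 10.25, 10.27 and 10.23 in CLBL-1 controls. In 17-71 GPR183 read 8.66, 8.62 and 8.41 in treated cells and 8.36 and 8.41 in controls, which touch. CCR7, the receptor for lymph node entry, read 8.70 and 8.65 in treated CLBL-1 cells, against 8.76, 8.80 and 8.82 in CLBL-1 controls. In 17-71 CCR7 read 9.66, 9.77 and 9.71 in treated cells, against 9.56 and 9.41 in controls. The groups of CCR7 stood apart in both lines by small gaps, with a difference of -0.35 (adjusted p = 0.303). CD44, a hyaluronan receptor, had -0.44. Apart from CXCR5, no receptor of the list passed in either line.

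**Figure D5:**
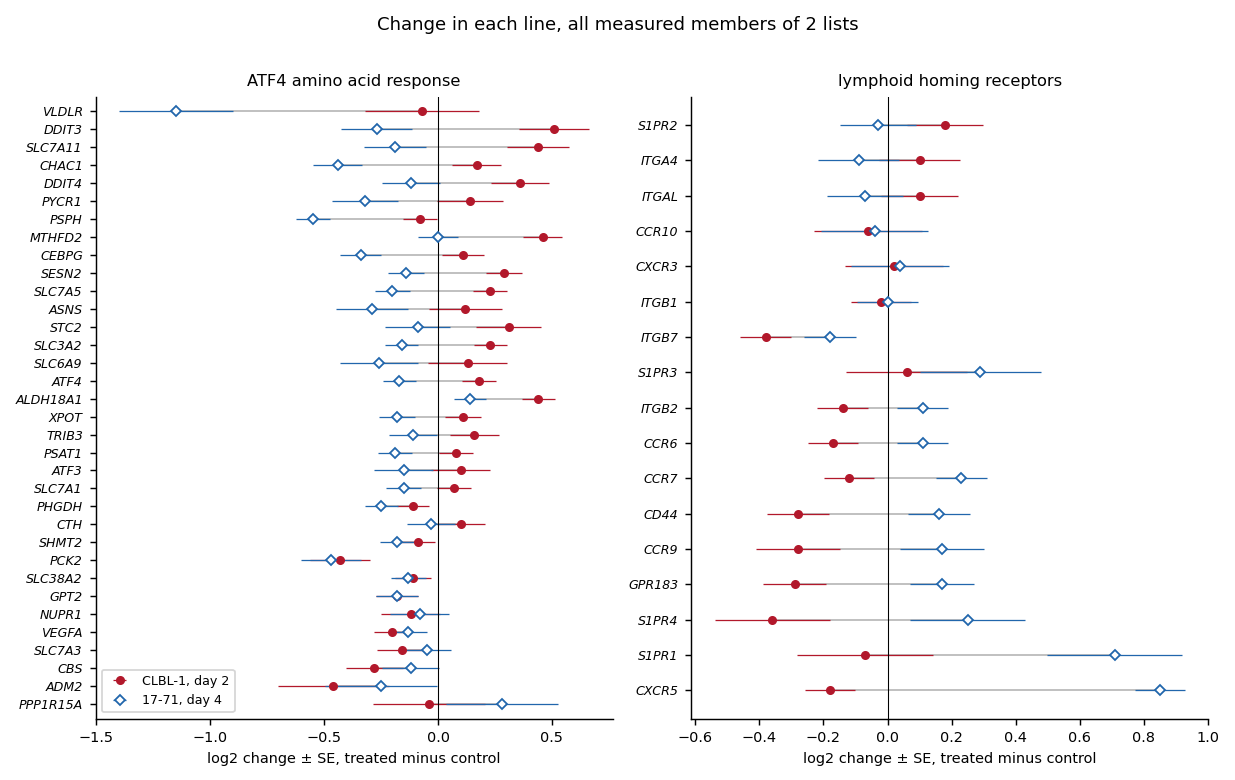
Log2 change ± SE, treated minus control, in CLBL-1 (filled circles) and 17-71 (open diamonds) for the 34 measured ATF4 genes and the 17 measured homing receptors. ATF4 genes sit to the right of 0 in CLBL-1 more often than in 17-71, where 32 of 34 are negative, and 14 of 17 homing receptors lie further left in CLBL-1.

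Genes of cytosolic DNA sensing and nucleic acid clearance were negative for 15 of 22, with a median of -0.19, a median change of -0.25 in CLBL-1 and -0.12 in 17-71. Besides RNASEH2C, the widest gaps were those of STING1 and PLD4. STING1, the adaptor of the cytosolic DNA sensor, read 4.83 and 4.87 in treated CLBL-1 cells, against 6.34, 6.17 and 6.12 in CLBL-1 controls. In 17-71 STING1 read 7.57, 7.79 and 7.67 in treated cells, against 8.03 and 8.04 in controls. STING1 fell in CLBL-1 (log2 change -1.36, adjusted p = 0.000889), with a difference of -1.0 (adjusted p = 0.0666). PLD4, an endolysosomal exonuclease, read 5.74 and 5.77 in treated CLBL-1 cells, against 7.44, 7.24 and 7.58 in CLBL-1 controls. In 17-71 PLD4 read 5.34, 4.64 and 5.09 in treated cells and 5.13 and 5.19 in controls, overlapping and more scattered. The PLD4 difference was -1.53 (SE 0.266, adjusted p = 0.121). TBK1, the kinase downstream of STING1, had a positive difference of 0.34. Interferon response genes were negative for 27 of 37 with a median of -0.12, but at an unadjusted p below 0.05 there were 2 on each side (5.41% and 5.41%). IFI35 and STAT2 fell in CLBL-1 (adjusted p 0.0103 and 0.0219), with differences of -0.62 and -0.41. DDX58, which encodes a sensor of viral RNA, rose in CLBL-1 (adjusted p = 0.049) with a difference of 0.57, and the transcription factor gene IRF1 had 0.45.

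Antigen presentation and B cell surface genes showed wide gaps in some members, with small list medians. DLA-DOA, the alpha chain of the DO heterodimer that modulates class II peptide loading, read 7.25 and 7.71 in treated CLBL-1 cells, against 9.43, 9.47 and 9.46 in CLBL-1 controls. In 17-71 DLA-DOA read 5.17, 5.05 and 5.51 in treated cells, against 5.66 and 5.76 in controls. DLA-DOA fell in CLBL-1 (adjusted p = 0.00174), with a difference of -1.50 (SE 0.232, adjusted p = 0.0899), and its partner DLA-DOB had -0.67. The 14 class II genes measured had a median difference of -0.06, with 10 negative. Among them 3 were negative (21.4%) and 0 positive at an unadjusted p below 0.05. Class I and antigen processing genes were negative for 12 of 15, with a median of -0.08. CD37, a tetraspanin of mature B cells, read 9.03 and 9.09 in treated CLBL-1 cells, against 9.87, 9.87 and 9.91 in CLBL-1 controls. In 17-71 CD37 read 9.15, 9.07 and 9.08 in treated cells, against 9.24 and 9.17 in controls. Its fall in CLBL-1 passed (adjusted p = 0.00213) and its difference of -0.71 did not (adjusted p = 0.0801). The B cell receptor and surface list had a median of -0.04 with 16 of 28 negative. Of these 28, 6 were negative (21.4%) and 0 positive at an unadjusted p below 0.05, against 5.95% and 7.31% of all genes.

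Genes of mitosis were negative for 46 of 65, with a median of -0.09. Beside PRR11, KIF2C, a microtubule-depolymerising kinesin, read 7.05 and 7.11 in treated CLBL-1 cells, against 7.60, 7.57 and 7.73 in CLBL-1 controls. In 17-71 KIF2C read 7.14, 6.97 and 6.99 in treated cells and 6.97 and 6.97 in controls, which touch. KIF2C fell in CLBL-1 (adjusted p = 0.0219), as did CDCA3 (adjusted p = 0.0072) and the CDK-activating phosphatase CDC25B (adjusted p = 0.0141), with differences of -0.62, -0.51 and -0.47. In this list 7 of 65 genes fell in CLBL-1, where 2.11% of all genes did, and 0 in 17-71, where 0.0376% of all genes did. Genes of the G1/S step and DNA replication had a median of -0.01 over 50 measured. There were 6 positive (12%) and 6 negative (12%) at an unadjusted p below 0.05, against 7.31% and 5.95% of all genes.

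Lipid genes were negative more often than positive, with 15 of 18 cholesterol synthesis genes (median -0.14) and 15 of 25 fatty acid and glycerolipid genes (median -0.11). FADS1, a desaturase of polyunsaturated fatty acids, read 10.39 and 10.40 in treated CLBL-1 cells, against 11.19, 11.19 and 11.08 in CLBL-1 controls. In 17-71 FADS1 lay near the median level, at 3.74, 3.68 and 3.80 in treated cells and 3.53 and 3.76 in controls. FADS1 fell in CLBL-1 (adjusted p = 0.00836), with a difference of -0.85 (adjusted p = 0.0899). DGAT1, which makes triglycerides, fell in CLBL-1 (adjusted p = 0.0092), with a difference of -0.82. GPAM, the first acyltransferase of the same route, had a positive difference of 0.60. MVD of cholesterol synthesis differed through 17-71, with a change of -0.01 in CLBL-1 and 0.33 in 17-71. Tryptophan and kynurenine genes were negative for 12 of 14 with a median of -0.22, and apart from AFMID no member fell or rose in either line. KMO, a later enzyme of the route, had a difference of -0.69.

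The 8 MYC target genes that the study had named from these arrays were lower after treatment in both lines, 8 of 8 in CLBL-1 and 8 of 8 in 17-71, so the list is no independent evidence of its direction. The median change was -0.46 in CLBL-1 and -0.34 in 17-71, the median difference was -0.17, and 0 of 8 passed for the difference. FARSA, a phenylalanyl-tRNA synthetase subunit, ALG3, a glycosylation enzyme, and IPO4, an importin, fell in CLBL-1 (adjusted p 0.0242, 0.0358 and 0.0232), and their changes in 17-71 were -0.23, -0.27 and -0.41. p53 and its target genes were positive for 16 of 25 with a median of 0.17. Of these 25, 5 were positive (20%) and only DDB2 negative (4%) at an unadjusted p below 0.05. DDB2, a DNA damage sensor of that list, read 6.20 and 6.39 in treated CLBL-1 cells, against 7.06, 7.11 and 7.10 in CLBL-1 controls, a fall (adjusted p = 0.0139) with a difference of -0.76. In 17-71 DDB2 overlapped, at 6.03, 6.25 and 6.10 in treated cells and 6.30 and 6.03 in controls. WDR77, the obligate partner of PRMT5 in the methylosome, fell in CLBL-1 (log2 change -0.50, adjusted p = 0.0448) against a change of -0.14 in 17-71 and had a difference of -0.36, while 9 of the 13 PRMT5 and methylosome genes were positive with a median of 0.08.

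Respiratory chain subunits had a median difference of 0.02, glycolysis and pentose phosphate genes 0.01, peroxisome genes 0.01 and NF-kB subunits and targets 0.00, all close to that of all genes. Of the 28 glycolysis and pentose phosphate genes 4 were negative (14.3%) and 1 positive (3.57%) at an unadjusted p below 0.05. In CLBL-1, 4 of these 28 fell and 1 rose, as did 4 and 1 of 35 peroxisome genes. Of all genes 2.11% fell and 1.06% rose there. Over myeloid markers the median was -0.05. Of these 22, 3 were negative (13.6%) and 0 positive at an unadjusted p below 0.05, against 5.95% and 7.31% of all genes. AIF1, a macrophage calcium-binding protein, fell in CLBL-1 (log2 change -0.86, adjusted p = 0.00473), at 3.16 and 3.28 in treated cells, against 3.99, 4.19 and 4.05 in controls. In 17-71 AIF1 read 6.98, 6.96 and 6.86 in treated cells, against 7.17 and 7.07 in controls, a change of -0.19 (adjusted p = 0.492) and a difference of -0.67. S100A9 had a difference of -0.58. S100A8, a calcium-binding protein of granulocytes and monocytes, read 5.57, 5.54 and 5.33 in treated 17-71 cells, against 4.77 and 4.57 in 17-71 controls, with a change of 0.81 that did not pass (adjusted p = 0.0622). In CLBL-1 S100A8 stayed far below the median level, at 1.78 and 1.90 in treated and 1.72, 1.79 and 1.76 in control cells.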

How the data were processed

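Values deposited by the authors were log2 levels of each probe set on a canine whole-transcript gene array, made with RMA (background correction, quantile normalization and median polish). The submitters' processing notes name RMA, limma and Affymetrix Expression Console. Whether both lines were normalized in 1 run is not given in the sources used here. For arrays the number of samples, not a read depth, limits the precision.

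Of 32391 probe sets, 16545 had 1 gene symbol in the platform annotation, 370 several and 15476 none here. By gene ID, 15820 were found in the RefSeq table of UU_Cfam_GSD_1.0. For 516 symbols with more than 1 probe set, the one with the highest mean was used in lists and plots of genes.

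Group means of 4 groups were fitted to all 10 arrays by lmFit and eBayes of limma 3.58.1 (R 4.3.3) as two-sided tests, with 6 residual and 2.39 prior degrees of freedom, with Benjamini-Hochberg adjustment over all probe sets. The fit was tested on simulated data in which the spread was unrelated to level, so the choice of variance model was not tested. No set test was run on the 48 gene lists. Members and lists were chosen with earlier results of these data known. The genes named are PRMT5, MYC, the 10 with the smallest p in each direction whose treated and control arrays did not overlap in the line with the larger change, and up to 4 members with the smallest p per list described. The alternatives were intensity trend and robust variances, other normalizations, filters on low values or unnamed probe sets, separate fits, array weights, a replicate block and leaving out each array. Intensity trend alone and robust variances alone were added after seeing the data.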

Additional observations from a re-analysis of the deposited data

Results flagged for a closer look

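The difference of response itself was tested in limma, and 7 named genes passed. Line and day of collection cannot be told apart in these differences, and 6 of the 7 lost the call whichever array was left out. The change in CLBL-1 was more positive than that in 17-71 by 1.67 for PRPF39 and by 1.16 for WSB1 (log2). It was more negative, with a difference of -1.66 for CYB561A3, -1.31 for IDH3G, -1.09 for RNASEH2C, -1.09 for PRR11 and -1.03 for CXCR5. WSB1 and CXCR5 are the genes of the 7 that passed in 17-71 alone, and the other 5 passed in CLBL-1 alone. Dixon's test for an outlying array was not applied to groups of 2 and 3 arrays. Estimated array weights lay between 0.884 and 1.21.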

How the results depend on the processing

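The counts of probe sets past the threshold depended strongly on the processing: 10 for the difference, 607 for CLBL-1 and 15 for 17-71 as reported. They were 288, 1575 and 206 with an intensity trend and robust variances, 299, 1616 and 216 with the trend alone, 268, 1703 and 158 over probe sets with a mean above the median, 271, 1731 and 171 over those above it in both lines, and 96, 1107 and 44 over those with 1 symbol. The trend with robust variances shared all 10 reported calls. Fitting each line alone gave 6 (1 of them shared), 43 and 0 (2916 at an unadjusted p below 0.05), and array weights took 17-71 to 6. A replicate block gave 0, 0 and 0 (2818, 3343 and 3010 at an unadjusted p below 0.05). Same-numbered deviations from the group means correlated at -0.026 to 0.0079. With so few arrays per group these values cannot show whether same-numbered samples were paired, and the labels do not say. With 1 array left out the counts were 0 to 2, 58 to 414 and 0 to 7. For the difference, 2 passed without 17-71 treated replicate 2, 1 without 17-71 treated replicate 3, 2 without 17-71 control replicate 1 and 0 without any other array. The CLBL-1 count was 58 without CLBL-1 treated replicate 1, 121 without treated replicate 2, 166 to 189 without a CLBL-1 control array and 387 to 414 without a 17-71 array, and the 17-71 count was 7 or lower whichever array was left out. The cause of these shifts was not tested. No difference reversed for PRMT5, MYC and the 20 ranked genes (0 of 262 values in other settings and 0 of 220 with 1 array left out) or for the 53 list members tabulated (0 of 630 and 0 of 530). Of these 53, 0 passed as reported and 23 with the trend and robust variances. The median difference kept its sign in 22 alternatives for the ATF4, nucleolar, spliceosome, SR, TREX, homing receptor, DNA sensing, mitosis and lipid lists, and changed sign in some for peroxisome (6), cytosolic ribosomal protein (9), NF-kB (10), glycolysis (7), myeloid (3) and B cell receptor and surface (1) genes. Levels below the median, as of CXCR5 in 17-71 controls and IDNK on all 17-71 arrays, may carry little signal over background. Detection above background was not tested.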
